A study of Drosophila melanogaster with 15 samples.

Results

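The cytoplasmic ribosomal protein genes of *Drosophila* were followed through RNA-Seq of fly heads in which splicing factors had been targeted by RNAi. Members were taken by symbol from the table of gene counts: symbols that start with RpS or RpL and a digit, or with RpLP. The rule found 88 of the 13259 genes in the table. Of these, 36 carry symbols of the small subunit (RpS) and 52 symbols of the large subunit (RpL and RpLP). The 72 genes of mitochondrial ribosomal proteins (mRpL and mRpS) are not members and serve as a comparison. The members lie on every large chromosome arm, with 17 on 2L, 21 on 2R, 14 on 3L, 21 on 3R, 14 on X and 1, *RpS3A*, on chromosome 4. They account for 840 of 81861 exon rows and 39003 of 1105894 splice junctions in the deposited tables, but 29708 of the members' junctions were seen in a single read, and 228 match annotated introns.

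The cytoplasmic ribosome is built from ribosomal RNA and a large set of proteins, nearly all present once per particle. The small subunit decodes the mRNA, and the large subunit forms peptide bonds and carries the acidic stalk of RpLP0, RpLP1 and RpLP2, which recruits the translation factors. In *Drosophila* the genes are short, strongly transcribed and mostly single copy, and loss of 1 copy of many of them gives the *Minute* phenotype of slow development and thin bristles.

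Adult heads of 3 genotypes were sequenced, with 5 libraries of each. The control was *GMR/+*, which carries the driver and no RNAi transgene (replicates 1 to 5). The knockdown groups were *GMR > prp4* RNAi (GD) (replicates 6 to 10) and *GMR > prp8* RNAi (GD) (replicates 11 to 15). Prp4, encoded by *CG7028*, is a kinase of the tri-snRNP, and Prp8 is a core protein of the same particle at the heart of the spliceosome. Flies of all 3 groups were 3 to 5 days old, were kept on a 12 h:12 h light and dark schedule for a minimum of 3 days, and were frozen at ZT12 according to the labels. The GMR driver acts in the developing and adult eye, whereas the RNA came from whole heads, so a change confined to the eye is diluted by brain, fat body, muscle and cuticle cells. In such bulk RNA, fewer cells of a type and less RNA per cell cannot be told apart. The labels do not say whether the libraries of a group came from separate crosses, so the p-values measure the spread between these libraries.

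Gene counts summed to between 11753627 and 11979892 reads per library, since the authors had resampled the aligned reads to a common depth. Photoreceptor, neuron, glia and muscle markers were present in every library, and the summed photoreceptor markers ranged from 1567836 to 1656006 reads in control, 1487341 to 1657200 in prp4 RNAi and 1421085 to 1637906 in prp8 RNAi. The highest prp8 RNAi sum was that of replicate 14, and the other prp8 RNAi libraries, with 1421085 to 1484211, all lay below the control range. Past the edgeR threshold, 4 of the 15 photoreceptor markers were lower and 1 higher in prp4 RNAi, and 5 were lower in prp8 RNAi. Of the 6 glia markers 2, *moody* and *Gs2*, were lower in prp4 RNAi and none passed in prp8 RNAi, with sums of 48999 to 54978 reads in control, 43167 to 46949 in prp4 RNAi and 44119 to 50163 in prp8 RNAi. Sums of the 8 ovary markers were 151 to 273 reads over all libraries and sums of the 4 testis markers were 8 to 21. The targeted genes showed no change past the threshold in either comparison with control. *CG7028* had 141 to 165 reads in control and 111 to 149 in prp4 RNAi (log2 fold change -0.23, edgeR adjusted p = 0.101). *Prp8* had 1339 to 1545 reads in control and 1264 to 1311 in 4 of the prp8 RNAi libraries, but 1572 in replicate 14 (log2 fold change over all 5 libraries -0.11, edgeR adjusted p = 0.278). The library labelled prp8 RNAi replicate 14 goes against its label in this respect, so the main results of the members in prp8 RNAi are given with and without it. It also stood apart in some photoreceptor markers. *Rh3* had 8183 reads in it, 10831 to 12085 in the other prp8 RNAi libraries and 7019 to 8291 in prp4 RNAi. For *inaD* these were 2157, 1462 to 1605 and 1929 to 2169. For *Rh4* it lay among the other prp8 RNAi libraries (9223 against 8834 to 9264). The remaining prp8 RNAi values of the markers, and those of the mitochondrial ribosomal proteins and of the 5′ introns of other members, are given only with it.

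The ribosomal protein genes were among the most abundant transcripts of the head. Levels are given in CPM, counts scaled to the library total, divided by the kilobases of annotated exon. The CPM values of single libraries given further on are not divided by length. They were scaled to the total of the genes kept by the filter on low counts, times a TMM normalization factor. The median member stood at 787.6 in control heads, against a median of 4.53 over the genes with an exon length, and 39 of the 100 highest genes were members. *RpS29* was highest at 4226 ± 258 (SD, n = 5). *RpS24* (3167 ± 136), *RpL37a* (3145 ± 202) and *RpL23A* (3066 ± 734) followed and did not differ from each other beyond their spread. *RpL6* came next at 2768 ± 188. The large subunit genes had a median of 678 and the small subunit genes of 875 CPM per kilobase. In reads, 76 members had a mean control count over 1000.

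**Figure D1:**
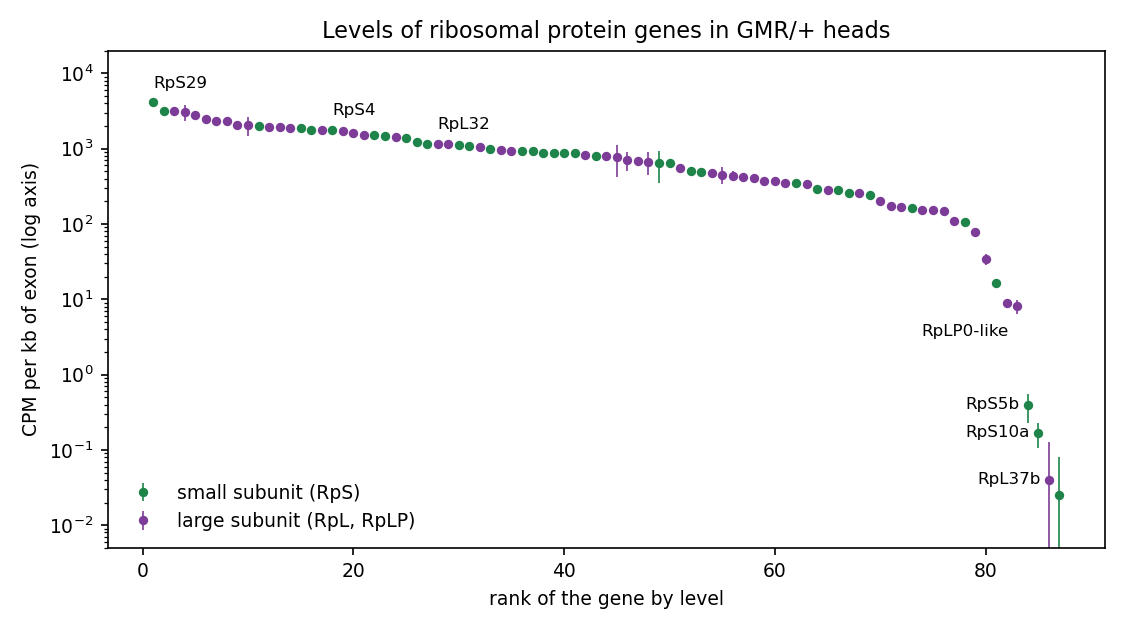
Level of each ribosomal protein gene in control heads, in CPM per kilobase of exon on a log axis, with genes ranked from highest to lowest. Points give the mean of 5 control libraries and bars the SD, *RpL22-like* at 0 is not drawn, and the curve falls from 4226 for *RpS29* to 8.10 for *RpLP0-like* and 0.025 for *RpS19b*.

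The plot of ranked control levels shows a long plateau that ends in a steep drop. The lower end held duplicate genes and a few very short ones. *RpL38*, *RpL39* and *RpL41*, with coding lengths of 210, 153 and 75 bp, stood at 8.80 ± 0.90, 34.1 ± 5.9 and 173 ± 24 CPM per kilobase in control heads, and *RpL39* overlaps *RpL12* on the opposite strand. *RpLP0-like* stood at 8.10 ± 1.69, against 1730 ± 86 for *RpLP0*, the scaffold of the stalk. RpLP0-like is the fly homolog of yeast Mrt4, a factor that occupies the place of the stalk protein while the large subunit is assembled. *RpL24-like*, the homolog of the yeast assembly factor Rlp24, stood at 153 ± 4.9 against 450 ± 114 for *RpL24*.

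Of the duplicated genes, 1 copy usually carried nearly all of the expression. *RpS5a* stood at 1099 ± 49 and *RpS5b* at 0.389 ± 0.161 CPM per kilobase in control heads. *RpS10b* stood at 643 ± 290 and *RpS10a* at 0.167 ± 0.062, and *RpS19a* at 987 ± 40 and *RpS19b* at 0.025 ± 0.056. *RpS5b*, *RpS19b* and *RpL22-like* are best known from the germ line, and the germ line markers *vas*, *nos* and *osk* had at most 6, 1 and 2 reads in any library of these heads. *RpL22-like* had 1 read in the 15 libraries together, *RpL37b* had 4, *RpS19b* had 5 and *RpS10a* had 20, so that none of them exceeded 3 reads in any library. *RpS5b* had 91 reads in all, with 2 to 13 per library. These 5 genes did not pass the filter on low counts, and 83 members were tested.

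Other pairs were shared more evenly. The adjacent genes *RpS14a* and *RpS14b* on X, which encode the same protein, stood at 244 ± 18 and 261 ± 12 CPM per kilobase in control heads. The split of their reads is uncertain, because near-identical copies share sequence and the counting rule decides where such reads go. *RpL34b* stood at 710 ± 204 and *RpL34a* at 351 ± 16, and the wide spread of *RpL34b* is described further on. *RpS15Aa* stood at 347 ± 20 and the intronless copy *RpS15Ab* at 16.5 ± 0.70. The 2 genes that encode ubiquitin fused to a ribosomal protein differed, with *RpL40* at 1900 ± 64 and *RpS27A* at 281 ± 17.

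The members together took up between 7.33% and 9.32% of the gene counts. The summed share was 8.41%, 8.56%, 8.95%, 8.47% and 8.45% in control replicates 1 to 5. It was 8.98%, 8.44%, 8.47%, 7.33% and 8.01% in prp4 RNAi replicates 6 to 10. It was 9.32%, 9.04%, 9.25%, 8.53% and 8.56% in prp8 RNAi replicates 11 to 15. Replicate 9 of prp4 RNAi was lowest of the 15 libraries, and the 3 groups overlapped. The group means were 8.57 ± 0.22% in control, 8.25 ± 0.62% in prp4 RNAi and 8.94 ± 0.38% in prp8 RNAi (SD, n = 5 each), or 9.04 ± 0.34% in prp8 RNAi without replicate 14 (n = 4). No test was made of a sum over the members. The 6 fat body markers summed to 175308 and 203975 reads in prp4 RNAi replicates 9 and 10, the libraries with the lowest shares, and to 15827 to 94215 in the other 13, with none of the markers at 0 throughout. In replicates 9 and 10 nearly all of these reads, 173712 and 202339, were of *Lsp2*. There *fit* was also highest in its group (1167 and 1222 reads), and *to* (12 and 19) lay within the range of its group. *Yp1* (4 and 19 reads), *Yp2* (5 and 9) and *Yp3* (408 and 367) were lowest in their group in these libraries. The part of these genes in the shares was not tested. Large subunit genes took 1.45 ± 0.07 times the reads of small subunit genes in control, 1.43 ± 0.06 times in prp4 RNAi and 1.45 ± 0.04 times in prp8 RNAi.

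**Figure D2:**
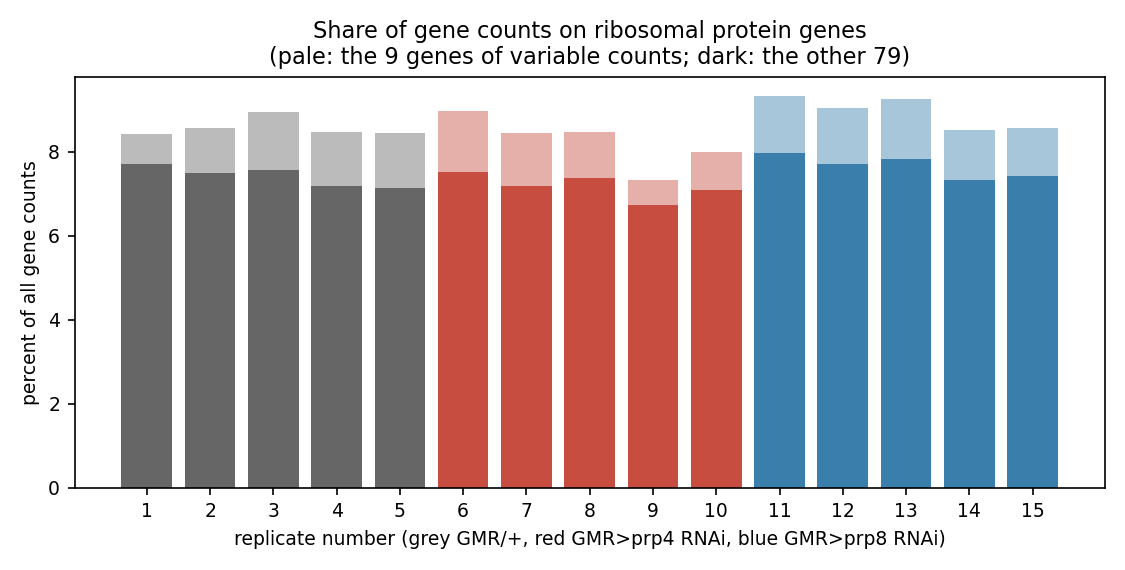
Share of each library's gene counts (%, y axis) that fell on the 88 ribosomal protein genes, as stacked bars with 1 bar per library, grey for control, red for prp4 RNAi and blue for prp8 RNAi, and the pale part for 9 genes of variable counts. Totals range from 7.33% in prp4 RNAi replicate 9 to 9.32% in prp8 RNAi replicate 11, and the 3 groups overlap.

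The plot of shares by library shows that prp4 RNAi had the widest spread. The summed share of 9 abundant members of variable counts, described below, had an SD of 0.271 percentage points in control, 0.331 in prp4 RNAi and 0.113 in prp8 RNAi. Without those 9, chosen after their values were seen, the share was 7.42 ± 0.25% in control, 7.18 ± 0.30% in prp4 RNAi and 7.66 ± 0.27% in prp8 RNAi.

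The first comparison asks whether ribosomal protein genes change when *prp4* is targeted in the eye. None of the 83 tested members passed the adjusted threshold of 0.05 in edgeR, where 9.63% of the 9012 genes tested did (4.66% lower and 4.97% higher). At an unadjusted p under 0.05 there were 4 members, all with lower values in prp4 RNAi, against 24.1% of all genes. DESeq2 called 2 members and limma-voom none. The members' median log2 fold change was -0.027 (all genes -0.00082), with 26 positive and 57 negative values, and 78 of the 83 lay within 0.2 of zero. The median standard error was 0.063. Without replicate 9 the median was 0.0059 with 42 positive and 41 negative values, so the balance of signs rested on that library. No member had groups that did not overlap, where 4.74% of genes were higher and 4.44% lower without overlap.

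The 4 members at an unadjusted p under 0.05 play different parts in the ribosome. *RpLP0-like* had the lowest value (log2 fold change -0.47, SE 0.14, edgeR adjusted p = 0.0524). *RpL8*, whose product lies near the peptidyl transferase centre, had -0.19 (SE 0.07, edgeR adjusted p = 0.0878). *RpL38* had -0.25 (SE 0.11, edgeR adjusted p = 0.173), and *RpS16*, a protein of the small subunit head, had -0.14 (SE 0.06, edgeR adjusted p = 0.184). *RpL8* and *RpS16* fall outside the rule for named genes and were chosen after their values were seen. *RpLP0-like* and *RpL8* were the 2 genes called by DESeq2. Further members with low values, *RpLP2* (-0.39, SE 0.37) and *RpL34b* (-0.26, SE 0.24), had standard errors nearly as large as the change. *RpS6*, the target of S6 kinase, had -0.04 (SE 0.06), and *RpL32*, also called rp49 and the qPCR reference gene of the study, had -0.04 (SE 0.11).

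The second comparison asks the same of *prp8*, with the same 5 control libraries. Of the 83 members 1, *RpLP0-like*, passed the threshold in edgeR, and it was lower, where 4.73% of the 9019 genes tested passed (2.37% lower and 2.36% higher). At an unadjusted p under 0.05 there were 5 members, against 20.7% of all genes. The members' median log2 fold change was 0.027 (all genes -0.0013), with 58 positive and 25 negative values, and 79 of the 83 lay within 0.2 of zero. Without the library labelled prp8 RNAi replicate 14, no member was called where 5.76% of genes were, 10 were at an unadjusted p under 0.05 against 20.2% of genes, and the median was 0.050 with 65 positive and 18 negative values.

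Of the other members at an unadjusted p under 0.05, 3 had higher values in prp8 RNAi. *RpL26*, at the exit of the peptide tunnel, had 0.15 (SE 0.05, edgeR adjusted p = 0.107), *RpS27* had 0.15 (SE 0.06, edgeR adjusted p = 0.161) and *RpL30* had 0.14 (SE 0.06, edgeR adjusted p = 0.194). *RpL41*, which encodes the smallest ribosomal protein, had -0.25 (SE 0.08, edgeR adjusted p = 0.105). Without the library labelled prp8 RNAi replicate 14, *RpS27* had 0.19 (SE 0.06, edgeR adjusted p = 0.0605) and *RpL26* had 0.16 (SE 0.05, edgeR adjusted p = 0.105). *RpL32* had -0.0013 (SE 0.08) and *RpS6* had -0.02 (SE 0.06) over all 10 libraries.

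*RpLP0-like* was the only member whose prp8 RNAi libraries all lay below the control libraries, where 2.67% of genes were lower without overlap and 3.05% higher. It had 87, 69, 114, 107 and 79 reads in control replicates 1 to 5. It had 67, 58, 67, 67 and 65 reads in prp8 RNAi replicates 11 to 15, and 67, 73, 61, 69 and 56 reads in prp4 RNAi replicates 6 to 10. The highest prp8 RNAi libraries and the lowest control library were 2 reads apart, and in prp4 RNAi the highest library, replicate 7, was above the lowest control. Without the library labelled prp8 RNAi replicate 14 the gene was again the 1 member wholly below control (4.26% of genes), and *RpS19a* and *RpS27* were among the members wholly above it (4.65% of genes). The log2 fold change of *RpLP0-like* in prp8 RNAi was -0.50 (SE 0.13, edgeR adjusted p = 0.0491), which is at the edge of the threshold. The call was lost in limma-voom (adjusted p = 0.0715), with library size only (edgeR adjusted p = 0.0528), and without any 1 of control replicates 1, 3 and 4 or of the 5 prp8 RNAi libraries, among them replicate 14 (edgeR adjusted p = 0.0654). The gene lies on 2R from 10098518 to 10099590 on the minus strand and overlaps *Jra*, a gene of the plus strand with a mean of 769 control reads. Whether the counting used strand is not given in the sources used here.

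**Figure D3:**
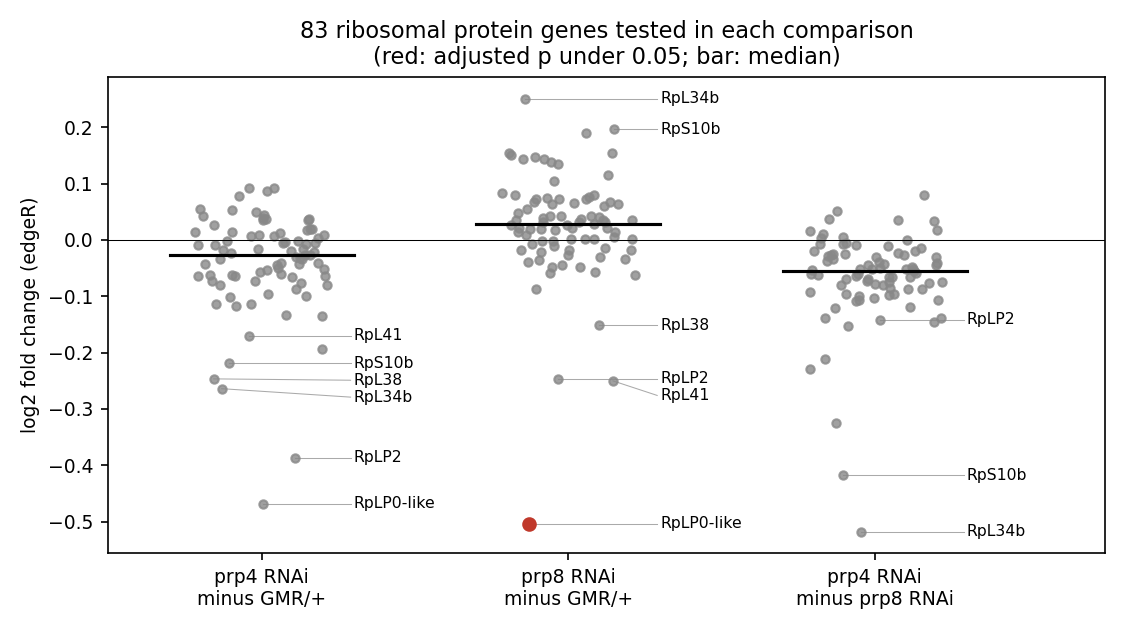
Log2 fold change (edgeR, y axis) of each of the 83 tested ribosomal protein genes in the 3 comparisons, with the median as a black bar. Medians are -0.027, 0.027 and -0.055, and the red point is *RpLP0-like* in prp8 RNAi at -0.50, the only gene past the adjusted threshold.

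The plot of fold changes shows narrow clouds of points around zero with a few genes below them. A grey line joins each labelled point to its name. In the third comparison, prp4 RNAi minus prp8 RNAi, which was fitted over all 15 libraries, no member passed the threshold in edgeR, DESeq2 or limma-voom, where edgeR called 2.36% of 9115 genes (0.987% lower and 1.37% higher). At an unadjusted p under 0.05 there were 4 members, against 16.0% of genes, and 10 values were positive and 73 negative with a median of -0.055 (all genes -0.0068). The largest difference was that of *RpL34b* (-0.52, SE 0.21, edgeR adjusted p = 0.224), and its sign was not the same in every alternative setting. *RpL8*, *RpL26* and *RpS19a* had -0.15, -0.12 and -0.14. No member had groups that did not overlap, where 1.55% of genes were higher and 1.32% lower without overlap. Without the library labelled prp8 RNAi replicate 14, none was higher (5.52% of genes), and *RpL34a*, *RpL9*, *RpS19a* and *RpS29* were among those lower (4.04% of genes). The median was -0.033 without prp4 RNAi replicate 9 and -0.082 without the library labelled prp8 RNAi replicate 14. *RpLP0-like* differed by 0.03 (SE 0.13) between the knockdown groups. Of the targeted genes, which are not members, *Prp8* passed the threshold here (0.21, SE 0.05, edgeR adjusted p = 0.0492). *CG7028* did not (-0.15, SE 0.08, edgeR adjusted p = 0.404).

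Some abundant members varied widely between libraries of the same genotype. Within-group spread was taken as the pooled SD of log2 normalized counts. Over the 76 members with more than 1000 reads the median spread was 0.0948, close to the 0.0956 of the 1961 genes above that count. It exceeded 0.2 in 9 of these members (11.8%) and in 165 of the 1961 genes (8.41%). The 9 were *RpLP2* (0.68), *RpS10b* (0.64), *RpL22* (0.62), *RpL18* (0.47), *RpL24* (0.42), *RpL34b* (0.40), *RpL23A* (0.34), *RpL28* (0.25) and *RpLP1* (0.22). The limit of 0.2 was set after the values were seen and marks no gap, since *RpL32* (0.197) and *RpL13A* (0.185) lay just below it. RpLP1 and RpLP2 are the acidic proteins of the stalk, and the others sit in different parts of the particle.

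**Figure D4:**
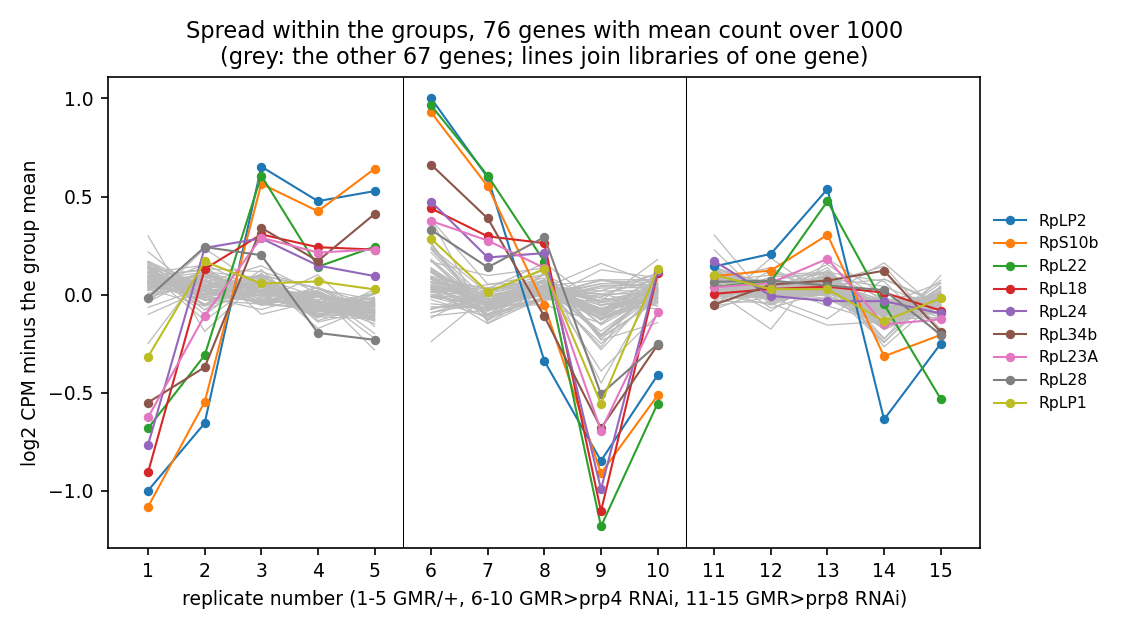
Log2 CPM of each member with over 1000 reads minus the mean of its group (y axis), for each library by replicate number (x axis); the 9 members of widest spread are coloured, the other 67 grey, and the order of the libraries carries no meaning. Control replicate 1 lies low for most of the coloured genes, and prp4 RNAi replicate 9 is lowest in its group for each of the 9.

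*RpLP2* had 210.4, 267, 662, 586 and 607 CPM in control replicates 1 to 5. It had 636, 480.3, 251, 176 and 239 in prp4 RNAi replicates 6 to 10, and 418, 437, 549.9, 243.5 and 318 in prp8 RNAi replicates 11 to 15. *RpS10b* had 426, 617, 1336, 1212 and 1408 CPM in control, 1468, 1131, 742, 409.97 and 539.8 in prp4 RNAi and 1208, 1233, 1398, 910.2 and 982 in prp8 RNAi. As the plot of the widely spread members shows, both genes were low in control replicates 1 and 2 and in prp4 RNAi replicates 9 and 10, and all groups overlapped. These genes were chosen for their spread, which gets no test.

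The spread was widest in short stretches of some of these genes, and in *RpL22* and *RpL23A* it was also present, less widely, in reads across an intron. In *RpL28* the junction from 3221284 to 3221466 (pooled SD of log2 counts 0.32) spread about as widely as the widest exon row (0.33). In *RpL34b* (3R, minus strand) the exon row from 9400384 to 9400604, with 165 bp of coding sequence and 53 bp of 3′ UTR, had 111, 334, 3093, 2018 and 3903 reads in control replicates 1 to 5. The same stretch had 3444, 3091, 781, 93 and 354 reads in prp4 RNAi and 2620, 3893, 4051, 3891 and 2395 in prp8 RNAi, a 43.6-fold range. The neighbouring exon row from 9400638 to 9400878 ranged from 1251 to 1981 reads over the same 15 libraries, and the junction between 9400879 and 9400941 from 297 to 466. The lowest library, prp4 RNAi replicate 9, was the same in both rows, but the range of the second was only 1.58-fold.

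In *RpL22* the coding stretch on X from 764622 to 764922 had 17 to 1303 reads, a 76.6-fold range, with the lowest value in control replicate 1 and the highest in prp4 RNAi replicate 6. Its junction from 762992 to 764301 had 1412 to 5317 reads, a 3.77-fold range. In *RpL23A* the coding stretch on 3L from 1667974 to 1668216 had 182 to 2142 reads, an 11.8-fold range. Its most read junction, from 1667736 to 1667808, had 7545 to 25512 reads, a 3.38-fold range, and the weakly read junction from 1668222 to 1668595 had 54 to 89. In *RpL18* the widest exon row had 7437 to 22741 reads and the junction from 7240778 to 7240854 had 221 to 349. When reads on junctions were used in place of gene counts, an alternative chosen after seeing the data, edgeR called no member in any of the 3 comparisons, where it called 4.09%, 2.39% and 1.41% of genes. At an unadjusted p under 0.05 there were 2, 7 and 1 members, against 16.4%, 15.1% and 12.9% of genes. The medians were then 0.00067 for prp4 RNAi, 0.053 for prp8 RNAi and -0.059 for their difference. What set the local spread was not tested.

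Junction use asks whether the reads of a gene shift between its introns. Of the 46 members with at least 2 introns read deeply enough in each comparison, *RpS4* was called in both, where 0.562% of 4445 genes were called in prp4 RNAi and 0.291% of 4464 in prp8 RNAi. RpS4 is a protein of the small subunit. The edgeR adjusted p was 0.000233 in prp4 RNAi and 1.08e-05 in prp8 RNAi, or 7.98e-06 without the library labelled prp8 RNAi replicate 14. It stayed past the threshold under each alternative and with each library left out, from 1.52e-07 to 0.00561 in prp4 RNAi and from 3.19e-09 to 0.000887 in prp8 RNAi. Both comparisons use the same control libraries, and the shift in *RpS4* was part of the rule by which the genes were chosen, so the values are a description.

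*RpS4* lies on 3L from 13041756 to 13044234 on the plus strand and has 5 annotated introns and 3 annotated transcripts. The shift is at its 5′ end. The second intron, from 13042015 to 13042109, starts at the base after the start codon, which ends at 13042014, and is shared by all 3 transcripts. Reads across this intron numbered 165, 216, 219, 190 and 152 in control replicates 1 to 5. They numbered 433, 309, 276, 234 and 259 in prp4 RNAi replicates 6 to 10, and 371, 318, 293, 281 and 325 in prp8 RNAi replicates 11 to 15. Every library of either knockdown group lay above every control library, and the knockdown groups overlapped each other. The mean rose from 188 to 302 in prp4 RNAi, 1.604 times the control, and to 318 in prp8 RNAi, 1.69 times the control.

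The first intron, from 13041838 to 13041981 in the 5′ UTR, moved the same way. Its reads numbered 36, 62, 68, 58 and 41 in control, 138, 107, 97, 64 and 69 in prp4 RNAi and 104, 94, 92, 83 and 108 in prp8 RNAi, and prp4 RNAi replicate 9 fell within the control range. Relative changes in junction and exon use are given as natural logs, against the change of the gene as a whole. The relative change of the first intron was 0.68 in prp4 RNAi (edgeR adjusted p over junctions = 0.000209) and 0.61 in prp8 RNAi (edgeR adjusted p = 4.08e-05). That of the second was 0.57 (edgeR adjusted p = 0.000146) and 0.53 (edgeR adjusted p = 4.80e-06).

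**Figure D5:**
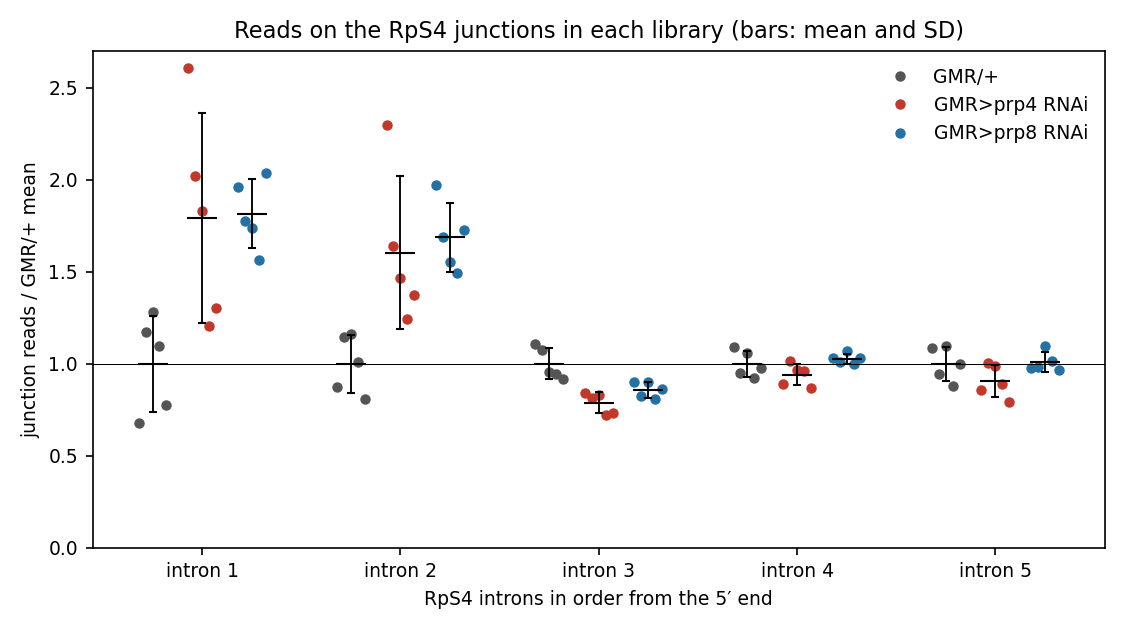
Reads across each annotated intron of *RpS4* divided by the mean of the 5 control libraries (y axis), with introns in order from the 5′ end, 1 point per library and bars for the mean and SD of each group. The means of the first intron are 1.79 and 1.82 in prp4 and prp8 RNAi, and those of the second are 1.604 and 1.69. The means of the third are 0.788 and 0.858, and the introns downstream of it lie near 1.

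The downstream introns differed little in relative use. The third intron, from 13042369 to 13042441, had 5050, 4900, 4362, 4296 and 4190 reads in control, 3829, 3718, 3783, 3293 and 3345 in prp4 RNAi and 4106, 3752, 4097, 3685 and 3929 in prp8 RNAi, so its knockdown libraries lay below the controls. Its relative change (natural log) was -0.14 in both comparisons, not past the threshold in either (edgeR adjusted p = 0.999967 and 0.99995). The fourth intron, from 13042540 to 13043165, had mean counts of 9849 in control, 9261 in prp4 RNAi and 10118 in prp8 RNAi. The fifth, from 13043338 to 13043573, had 6086, 5510 and 6135. The plot of *RpS4* introns shows both 5′ introns above the control mean and the third below it.

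As a share of all *RpS4* junction reads, the second intron had 0.731%, 1.06%, 1.01%, 1.002% and 0.757% in control. It had 2.35%, 1.53%, 1.40%, 1.27% and 1.52% in prp4 RNAi and 1.79%, 1.58%, 1.35%, 1.40% and 1.59% in prp8 RNAi. The groups did not overlap with control, and prp4 RNAi replicate 6 was the highest of all libraries. The means were 0.912 ± 0.156% in control, 1.61 ± 0.43% in prp4 RNAi and 1.54 ± 0.18% in prp8 RNAi (SD, n = 5 each), or 1.58 ± 0.18% without the library labelled prp8 RNAi replicate 14. Without replicate 6 the prp4 RNAi mean was 1.43 ± 0.12%. As a percentage of the *RpS4* gene count, the intron had 0.627 ± 0.098% in control and 1.10 ± 0.26% in prp4 RNAi.

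Exon counts showed the shift as well. They are not independent of the junction counts, since reads across an intron also fall on its flanking exons. Their values too are a description. *RpS4* was the only one of 81 tested members called in exon use in each comparison, where 0.962% of 7484 genes were called in prp4 RNAi and 0.601% of 7491 in prp8 RNAi. The edgeR adjusted p was 4.99e-08 and 2.02e-07, or 7.01e-08 in prp8 RNAi without the library labelled replicate 14. The first exon row, from 13041454 to 13041837, rose from 63.4 ± 16.9 reads to 120 ± 34 in prp4 RNAi and 119 ± 15 in prp8 RNAi. The short exon that ends in the start codon, from 13041982 to 13042014, rose from 173 ± 26 to 275 ± 74 and 285 ± 25. The next exon, from 13042110 to 13042368, had 9545 ± 806, 8547 ± 1049 and 9161 ± 454 reads. The *RpS4* gene count itself, 28028 to 32706 in control, did not pass the threshold (log2 fold change -0.11, SE 0.06, edgeR adjusted p = 0.306 in prp4 RNAi, and -0.04, SE 0.06, edgeR adjusted p = 0.782 in prp8 RNAi).

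The 5′ introns of other members did not share the direction seen in *RpS4*. Of 35 other members whose 5′-most intron was tested, 17 had positive and 18 negative relative changes in prp4 RNAi. In natural log units these ran from -0.34 to 0.24 with a median of -0.0035. In prp8 RNAi 18 were positive and 17 negative, from -0.35 to 0.21 with a median of 0.00014. A low depth at the 5′ intron was common: over 55 members with 2 or more introns read, the 5′-most intron had a median of 2.63% of the reads of the gene's most read intron in control. *RpS4*, at 0.538%, ranked 19 from the lowest. The members next after *RpS4* in junction use were not past the threshold, with *RpL30* at an edgeR adjusted p of 0.64 in prp4 RNAi and 0.143 in prp8 RNAi.

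In exon use *RpS7* came next after *RpS4* in prp4 RNAi (edgeR adjusted p = 0.181). Its exon row on 3R from 30208093 to 30208128 had a relative change (natural log) of -0.34 in prp4 RNAi (edgeR adjusted p over exons = 0.0428) and -0.26 in prp8 RNAi (edgeR adjusted p = 0.683). Without prp4 RNAi replicate 9, *RpL11* and *RpS7* were called beside *RpS4*.

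Genes that make or use the ribosome were set beside the members. Of 31 tested genes of ribosome biogenesis, none rose and 9 fell in prp4 RNAi, with a median log2 fold change of -0.29, where 4.97% of all genes tested were called higher and 4.66% lower. Box snoRNP proteins led them: *Nop60B*, the pseudouridine synthase (-1.18, SE 0.17, edgeR adjusted p = 0.000519), *nop5* (-1.14, SE 0.17, edgeR adjusted p = 0.000834), *Fib*, the 2′-O-methyltransferase (-1.15, SE 0.22, edgeR adjusted p = 0.00434), and *Nop56* (-0.87, SE 0.15, edgeR adjusted p = 0.00269). In prp8 RNAi 1 rose and 5 fell, with a median of -0.23, where 2.36% of all genes were called higher and 2.37% lower. Without the library labelled replicate 14, 1 rose and 4 fell with a median of -0.20. *Nop60B* (-0.99, SE 0.20, edgeR adjusted p = 0.0121), *nop5* (-1.02), *Fib* (-0.99) and *NHP2* (-0.78) were among the 5. The glia and photoreceptor markers given above were also lower in part, with medians of -0.21 and -0.10 in prp4 RNAi and -0.15 and -0.16 in prp8 RNAi, and their part in the values of this list was not tested.

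*Nop60B* had 33.4, 35.3, 53.7, 52.4 and 29.1 CPM in control replicates 1 to 5. It had 19.5, 19.9, 17.3, 14.6 and 18.6 in prp4 RNAi and 23.2, 25.9, 22.1, 12.7 and 18.8 in prp8 RNAi. All knockdown libraries lay below all control libraries, and control replicates 3 and 4 were the highest. Without control replicate 3, or without control replicate 4, 7 genes of the list fell in prp4 RNAi and 1, *Nop60B*, fell in prp8 RNAi. Without prp8 RNAi replicate 11 there were 2 lower calls in prp8 RNAi, and without replicate 13 there were 3. In reads on junctions the list had 2 lower calls in prp4 RNAi and 1 in prp8 RNAi among 20 tested genes.

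The translation factors gave no calls, with 0 of 7 elongation factors (median -0.04 in prp4 RNAi and -0.06 in prp8 RNAi) and 0 of 18 initiation factors (-0.04 and -0.02) past the threshold of edgeR in each comparison. Other settings called at most 1 gene of these lists. Of 12 genes of RNA polymerase I and of growth control, *Xrp1*, a transcription factor induced in *Minute* cells, rose in prp4 RNAi (0.26, SE 0.04, edgeR adjusted p = 0.00245) and in prp8 RNAi (0.33, SE 0.06, edgeR adjusted p = 0.00890). *RpI1*, the large subunit of RNA polymerase I, fell in prp4 RNAi (-0.37, edgeR adjusted p = 0.0239), and *Thor*, the 4E-BP repressor of translation, rose in prp8 RNAi (0.60, edgeR adjusted p = 0.0348). The call of *RpI1* was lost without control replicate 3 or 4 or prp4 RNAi replicate 10, and with junction reads. That of *Thor* was lost without the library labelled prp8 RNAi replicate 14, and without control replicate 3, 4 or 5 or prp8 RNAi replicate 11, 13 or 15. *Xrp1* was called in prp8 RNAi under each of these, and its call in prp4 RNAi was lost with junction reads. The mitochondrial ribosomal protein genes had 6 lower calls of 70 tested in prp4 RNAi (median -0.15, background 4.66%) and 1 of 71 in prp8 RNAi (median -0.07, background 2.37%), and none was higher in either. The 6 became 3 without control replicate 3, 4 without control replicate 1 or 2 or prp4 RNAi replicate 10, 10 without control replicate 5, and 0 of 38 tested with junction reads. *mRpS35* was called in both (-0.40, SE 0.06, edgeR adjusted p = 0.000759, and -0.32, SE 0.05, edgeR adjusted p = 0.00334).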

How the data were processed

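The authors aligned reads of poly(A)-selected, strand-specific libraries with STAR 2.5.3a, removed ribosomal and mitochondrial reads, resampled each library with PORT and counted reads against Ensembl release 88. They deposited whole-number counts of reads per gene, exon and junction, and their build is BDGP6. Resampling equalizes depth, so totals carry no information on RNA content.

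Gene counts were tested with edgeR 4.0.16 in R 4.3.3: filterByExpr, TMM, the quasi-likelihood test and Benjamini-Hochberg adjustment over all genes, at 0.05. Junction and exon use were tested with diffSpliceDGE (Simes p per gene) on features with at least 10 reads in at least 5 libraries, and at least 2 per gene. Coordinates and exon lengths come from Ensembl release 115. The pipeline was tested on simulated counts: edgeR recovered 200 of 200 changed genes with 9 false calls in 8979 genes, junction use 136 of 200 and exon use 163 of 200.

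The members, gene lists and tests were chosen with earlier results of these data known. Genes named are members past a threshold, the 5 highest and 5 lowest in level or fold change, duplicates, *RpS4*, *RpS6*, *RpL22*, *RpL32*, the RNAi targets and up to 4 genes per other list. Alternatives were limma-voom (limma 3.58.1, the method of the study), DESeq2 1.42.0, other normalizations and filters, and each library left out. Figures used Python 3.11.15 with pandas 2.3.3, numpy 2.4.6 and matplotlib 3.10.9. The values of 1 member are not reported here by name.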

Additional observations from a re-analysis of the deposited data

Results flagged for a closer look

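Among 171 groups of 5 libraries checked, 13 held a library whose gap to its nearest neighbour was over 0.71 of the range of the group, a test that chance meets in about 1 in 20 groups. Replicate 9 of prp4 RNAi was lowest in 4 of them: *RpL13* at 1586 CPM (others 1865 to 1958), *RpL13A* at 742 (1053 to 1139), *RpL37a* at 3729 (4002 to 4098) and *RpS19a* at 979 (1202 to 1276). Control replicate 1 was lowest for *RpL18* at 818 (1678 to 1897) and *RpL24* at 324 (588 to 672), and control replicate 4 for *RpS19a* at 1145 (1246 to 1283). In prp8 RNAi, the library labelled replicate 14 was lowest for *RpS15Ab* at 10.7 (12.4 to 13.0) and *RpS23* at 222 (263 to 277). Replicate 15 was lowest for *RpL28* at 577 (676 to 699) and replicate 12 for *RpLP0-like* at 4.91 (5.48 to 5.64). The summed share of the members in control replicate 3, 8.95%, and the share of the second *RpS4* intron in prp4 RNAi replicate 6, 2.35% (others 1.27% to 1.53%), lay above the rest of their groups.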

How the results depend on the processing

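In prp4 RNAi the count of members called was 2 with DESeq2, 2 with library size only, 1 without the filter on low counts and 1 with all 15 libraries in the fit, and 0 to 2 with each library left out. In prp8 RNAi it was 2 with DESeq2, 0 with limma-voom, 0 with library size only, 0 with junction reads in place of gene counts, and 0 to 2 with each library left out. The summed share was 13.1%, 12.7% and 13.6% in control, prp4 RNAi and prp8 RNAi when the 100 most abundant genes were taken out of the total, and 7.42%, 7.18% and 7.66% without the 9 members of wide spread, which follows from the smaller sums. The median control level was 740.8 to 796 with each library left out. Exon use called 3 members without prp4 RNAi replicate 9 (1 to 3 with each library left out), and 2 in prp8 RNAi with limma diffSplice. The cause of the other changes was not tested. In prp8 RNAi, 427 genes were called by edgeR, 624 by DESeq2 and 522 without the library labelled replicate 14. In prp4 RNAi minus prp8 RNAi, 215 were called by edgeR, 373 by DESeq2, 84 without the controls in the fit and 579 without that library. With library size only, the median of all genes in that comparison moved from -0.0068 to -0.040. No called value reversed, but few members were called. Of 57 named genes 29, 21 and 27 changed sign in some setting in prp4 RNAi, prp8 RNAi and their difference. The largest main values among these were 0.225, 0.251 and 0.517 in absolute log2 fold change. For *RpS4* no other junction of at least 50 reads shares a splice site with its second intron, so the share among such junctions gave no value. No paired analysis was possible because replicate numbers 1 to 15 are each used once. The largest standard error of a member in prp4 RNAi was that of *RpLP2*, 0.37.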
